A study of Mus musculus with 15 samples.

Results

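The cytosolic ribosomal protein genes encode the proteins of the large and small subunits of the ribosome that works outside mitochondria. They were taken as the mouse RefSeq protein-coding genes with a symbol of the form Rpl or Rps followed by a number, together with Rplp0, Rplp1, Rplp2 and Rpsa. Symbols of pseudogenes were left out. This gave 84 of 21774 protein-coding genes on chromosomes 1 to 19, X and Y, of which 49 encode large subunit proteins, 32 small subunit proteins and 3 the P stalk.

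The study profiled acetylation of histone H3 at lysine 27 (H3K27ac) by CUT&RUN in fusion-positive rhabdomyosarcoma (FP-RMS) tumors of 2 mouse models. Both models carry homozygous floxed Cdkn2a, the conditional Pax3-Foxo1 fusion allele written as Pax(3P3F/P3F) in the sample labels, and the Cre reporter R26-tdTom. In MCP tumors the alleles are recombined by Myf6-Cre, which acts in skeletal muscle cells, and in TCP tumors by Tek-Cre, which acts in endothelial and hematopoietic cells. The series has 15 libraries, namely 6 MCP H3K27ac, 3 TCP H3K27ac, 3 MCP IgG and 3 TCP IgG libraries. The values below come from the peak list of 1 of them, MCP H3K27ac replicate 5, which was made from live cells of a dissociated tumor. They therefore have no replicate error, no test between groups was possible, and TCP tumors were not compared. Intervals given below are 95% intervals over genes or peaks of this library, and they do not measure the spread between tumors.

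H3K27ac marks nucleosomes beside active start sites and at active enhancers, and the start site of an active gene is usually free of nucleosomes, so that the mark flanks it. Ribosomal protein genes are transcribed at a high rate in growing cells from promoters rich in CpG. Their transcripts typically begin with a cytosine followed by a run of pyrimidines, through which mTOR signaling controls their translation. The genes are also short, with many intronless pseudogene copies of their exons elsewhere in the genome and small nucleolar RNAs (snoRNAs) in many of their introns.

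The list held 122375 peaks. Their fold enrichment had a median of 5.22 and their width one of 163 bp. Fold enrichment is the ratio of scaled fragments at the summit to the IgG background, with 1 added to each. At 119 of the 252 promoter peaks of the ribosomal protein genes (47.2%) the background was at its lowest value, so that fold there restates the fragment number. Depth was not stated, and fragment numbers were recovered from the fold and p of each peak. Among 14 myogenic markers only Pax3, with 4 promoter peaks and a strongest fold of 18.1, and Myf6, with 1 peak and a fold of 5.97, had a peak within 2 kb of a start site. The defining muscle regulators Myod1 and Myog had none, and among 14 endothelial markers Cd34 alone had one. Pax3 and Myf6 are loci of the alleles of the model. Peak numbers in the list run to 122959, and 584 of them (0.475%) were absent. For 9 of the 84 ribosomal protein genes (10.7%) and 4.32% of other genes, the window around the start site touched a stretch with absent numbers, so that a missing peak there cannot be read as absence of the mark.

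The start site sequences of genes with the highest and the lowest promoter peaks are shown first, because the mark flanks the start. The sequences are from RefSeq (GRCm38.p6, which has the coordinates of mm10) and run 5′ to 3′ on the coding strand, from 120 bases before the start site to 20 bases from it onward. RefSeq promoter sequences were at hand for 64 of the 84 genes. Capitals mark GC boxes (GGGCGG), ETS motifs (CCGGAAG) and a polypyrimidine start, meaning a C within 5 bases of the annotated start and at least 4 further pyrimidines. Of the genes with a sequence, the 4 with the highest fold enrichment were Rpl31 (chr1:39367731-39367870, plus strand), Rps15 (chr10:80292311-80292450, plus strand), Rps24 (chr14:24490558-24490697, plus strand) and Rpl4 (chr9:64173267-64173406, plus strand).
Rpl31: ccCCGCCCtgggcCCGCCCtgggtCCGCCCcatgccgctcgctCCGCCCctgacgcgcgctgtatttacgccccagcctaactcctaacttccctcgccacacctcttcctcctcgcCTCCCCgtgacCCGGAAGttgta
Rps15: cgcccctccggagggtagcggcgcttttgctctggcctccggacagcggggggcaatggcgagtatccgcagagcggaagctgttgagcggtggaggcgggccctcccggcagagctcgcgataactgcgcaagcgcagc
Rps24: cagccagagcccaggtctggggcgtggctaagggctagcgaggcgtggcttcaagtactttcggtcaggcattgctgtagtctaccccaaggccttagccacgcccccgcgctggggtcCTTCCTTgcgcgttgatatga
Rpl4: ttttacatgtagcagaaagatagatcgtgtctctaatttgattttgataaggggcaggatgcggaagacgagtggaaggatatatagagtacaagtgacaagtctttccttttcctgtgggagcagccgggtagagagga
The 4 with the lowest were Rpl15 (chr14:18270967-18271106, minus strand), Rplp2 (chr7:141447531-141447670, plus strand), Rplp0 (chr5:115559347-115559486, plus strand) and Rps13 (chr7:116334171-116334310, minus strand).
Rpl15: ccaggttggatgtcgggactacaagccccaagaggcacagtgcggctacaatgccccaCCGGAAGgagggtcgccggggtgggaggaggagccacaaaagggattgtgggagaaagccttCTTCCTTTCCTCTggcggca
Rplp2: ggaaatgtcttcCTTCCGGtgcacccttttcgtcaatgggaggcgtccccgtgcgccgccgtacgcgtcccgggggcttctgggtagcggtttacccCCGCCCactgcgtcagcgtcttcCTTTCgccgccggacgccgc
Rplp0: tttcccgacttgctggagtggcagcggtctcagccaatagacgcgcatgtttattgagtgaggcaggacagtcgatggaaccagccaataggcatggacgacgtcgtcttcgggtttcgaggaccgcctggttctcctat
Rps13: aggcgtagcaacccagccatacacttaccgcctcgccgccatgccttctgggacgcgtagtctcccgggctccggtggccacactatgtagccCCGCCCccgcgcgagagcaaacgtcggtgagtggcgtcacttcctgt
Rpl13a (chr7:45128726-45128865, minus strand) and Rps10 (chr17:27635225-27635364, minus strand) had no promoter peak.
Rpl13a: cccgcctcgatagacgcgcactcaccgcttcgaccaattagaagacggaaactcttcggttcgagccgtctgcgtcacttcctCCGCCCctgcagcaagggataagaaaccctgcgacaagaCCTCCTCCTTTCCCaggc
Rps10: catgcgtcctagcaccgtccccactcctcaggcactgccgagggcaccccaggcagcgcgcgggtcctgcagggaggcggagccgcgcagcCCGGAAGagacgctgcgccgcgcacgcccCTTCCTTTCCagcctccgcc
A polypyrimidine start was present in Rpl31 and Rps24 among the highest, in Rpl15 and Rplp2 among the lowest, and in Rpl13a and Rps10. The window of Rpl13a touched absent peak numbers, so its lack of a peak is uncertain. Among paralogs with no peak, whose sequences are not shown, Rpl32l had a polypyrimidine start, and Rpl3l, Rpl10l and Rpl39l did not. The feature therefore occurred at both ends of the order and in some of the genes without a peak.

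Most ribosomal protein genes had an H3K27ac peak at the promoter. A peak overlapped 2 kb either side of a start site in 76 of the 84 genes (90.5%, interval 82.3 to 95.1%), against 45.6% of all protein-coding genes. By subunit, 43 of 49 large subunit genes, 30 of 32 small subunit genes and all 3 P stalk genes had one. Without the 7 paralogs whose symbol carries an l suffix, the share was 73 of 77 (94.8%). With only the strongest 25% of peaks by q, 61 of the 84 genes (72.6%) had one, against 29.7% of all protein-coding genes. The 76 genes held 252 promoter peaks, with a median of 3 each, and 10 genes had a single one.

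The 8 genes without a promoter peak fell into 2 kinds. There were 4 paralogs, namely Rpl3l, a paralog of Rpl3 found in heart and skeletal muscle, Rpl10l and Rpl39l, which are known from the testis, and Rpl32l. Relative to the start site, with negative values upstream, their nearest summits lay at -3540 bp from Rpl3l, 77465 bp from Rpl32l, 94474 bp from Rpl39l and -108626 bp from Rpl10l. The others are genes of the standard ribosome. Rpl3, whose protein reaches the peptidyl transferase center, had its nearest summit at 7684 bp. Rpl13a, also known as a regulator of translation in interferon-treated cells, had it at -11954 bp. The windows of Rpl3 and Rpl13a touched absent peak numbers. Rps10 did not, and its nearest summit lay at 13320 bp. The other 3 paralogs had peaks. Rpl22l1 had 4, with a strongest fold of 9.96, Rps27l, a p53 target, had 3 with 8.24, and Rpl7l1 had 2 with 6.08. Their parent genes Rpl22 and Rps27 had strongest folds of 6.94 and 8.67, and Rpl7 had 8.16, so the paralog was above its parent only at Rpl22l1. Among the parents of the 4 paralogs without a peak, Rpl32 had a fold of 11.5, Rpl10 of 5.22, Rpl39 of 5.65, and Rpl3 had no peak.

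CpG content bears on the comparison with all genes. The 10 equal groups of protein-coding genes were ordered by the number of CpGs within 500 bp of the most upstream start site. The share of other genes with a promoter peak was 8.36% in the lowest group and 74.9% in the highest. There were 73 ribosomal protein genes in the sixth to ninth groups, where the shares were 10 of 10, 14 of 16, 22 of 23 and 22 of 24. Other genes of the same groups had shares of 57.0%, 67.6%, 72.3% and 72.1%. The ribosomal protein genes thus had the higher share in each of these groups. Only 1 was in the top group. Their median strongest folds in these groups were 6.53, 8.33, 9.10 and 7.80, against 6.94, 7.24, 7.33 and 7.37 for other genes, so that fold was not higher in the sixth group.

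**Figure D1:**
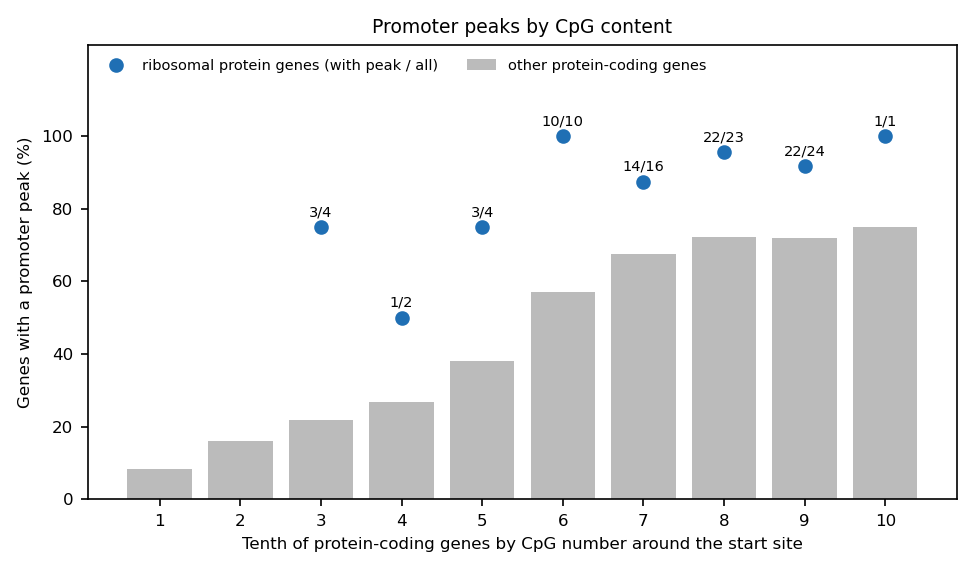
Share of genes with an H3K27ac promoter peak (vertical axis, %) in 10 equal groups of protein-coding genes by CpG number around the start site (horizontal axis, 1 lowest). Bars are other protein-coding genes and points are ribosomal protein genes, with the number with a peak over the number in the group, and each point lies above its bar.

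The strongest peaks of the ribosomal protein genes ranged in fold enrichment from 3.16 to 21.7. For each gene the promoter peak with the highest fold enrichment was taken. Its median fold was 8.29 (interval 7.37 to 9.10, quartiles 6.75 and 10.5, n = 76 genes), against 7.37 (interval 7.24 to 7.37) in 9844 other genes with a peak. Of the 76 genes, 47 (61.8%) were above the median of other genes. Median width was 314 bp (interval 260 to 460) against 298 bp (interval 291 to 305) in other genes. The intervals of the widths overlapped, and those of the folds met at 7.37. With only the strongest 25% of peaks, the median fold was 8.67 in both sets of genes.

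Rpl31, a protein at the rim of the peptide exit tunnel, had the strongest peak, with a fold of 21.7 and a width of 1211 bp. The peak spans chr1:39368166-39369376 (mm10), and its summit lies in an intron, 933 bp downstream of the start site. It had 56 recovered fragments over the summit (Poisson interval 42.3 to 72.7). Rps15, in the head of the small subunit, followed with a fold of 19.0 at +273 bp, and Rps24, one of the genes mutated in Diamond-Blackfan anemia, with 15.6 at +488 bp. Rpl4, which lines the exit tunnel, had 15.2 at +89 bp, and its peak was only 138 bp wide. Rpl9 had 14.5, Rpl37a 14.3 and Rpl27a 14.1. Rpl11, Rpl26 and Rpl41 tied at 12.97. Of these 10 genes, only Rpl27a had its strongest summit upstream, at -961 bp. The 5 widest strongest peaks belonged to Rpl37a (1845 bp), Rpl9 (1318 bp), Rpl38 (1295 bp), Rpl27a (1293 bp) and Rpl31, and Rpl38, known for its part in axial patterning of the skeleton, had a fold of 12.3.

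At the low end stood Rpl23a, a docking site for the signal recognition particle. Its single peak had a fold of 3.16 with 7 fragments (Poisson interval 2.81 to 14.4) and a -log10 q of 1.51. Rps13 had a fold of 4.09. The P stalk genes, whose proteins recruit the elongation factors, were all low. Rplp0 had a fold of 4.46 from a single peak, Rplp2 had 4.76, and Rplp1 had 6.53. Rpl15 had 4.79 at its single peak, beside absent peak numbers, and Rpl35, Rpl10 and Rpl12 had 4.99, 5.22 and 5.39. Low fold did not always mean few fragments, because fold depends on the local background. Rps13 had 22 fragments at its summit, more than the median of 21 (quartiles 15 and 27.3) over the 76 genes, at which the Poisson error is 21.8%. Genes that are neighbors in this order cannot be told apart at this depth, whereas the fragment intervals of Rpl31 and Rpl23a do not overlap.

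**Figure D2:**
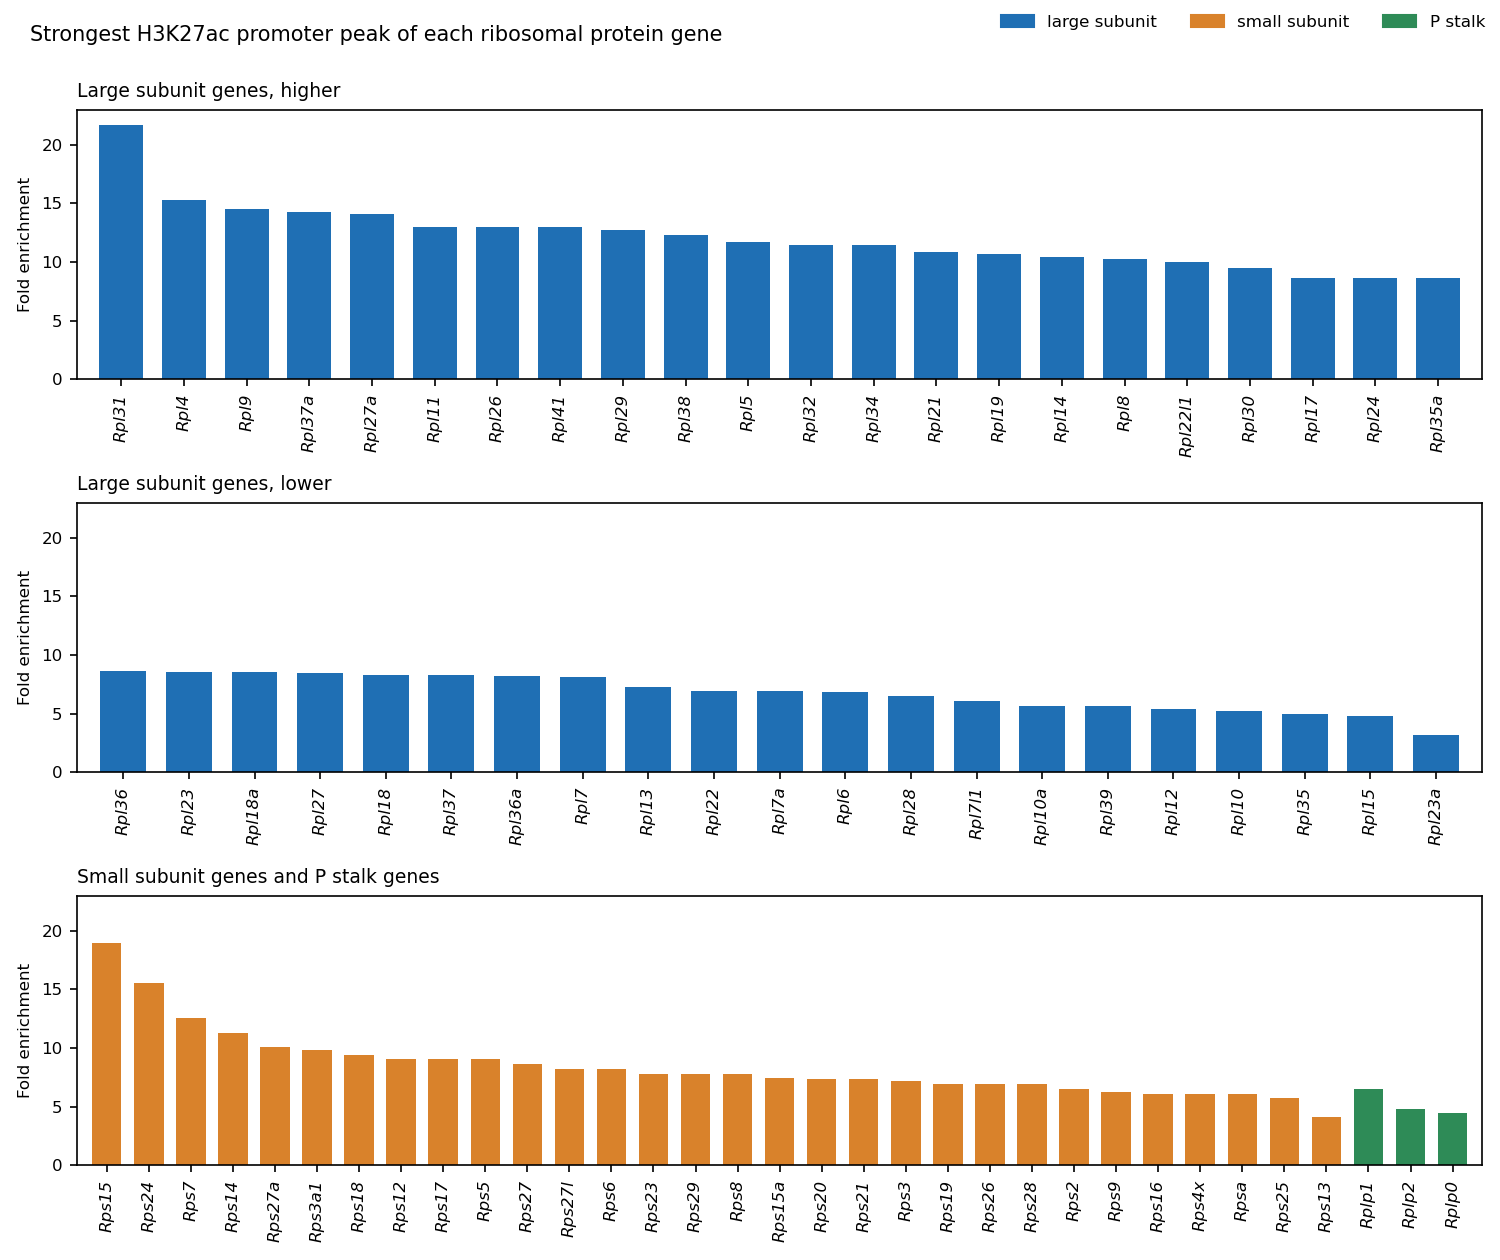
Fold enrichment of the strongest H3K27ac promoter peak (vertical axis) of each of the 76 ribosomal protein genes with one, ordered by height within the large subunit (upper and middle panels) and within the small subunit and the P stalk (lower panel). Bars are single values from 1 library. Rpl31 reaches 21.7 and Rps15 19.0, and the P stalk genes lie between 4.46 and 6.53.

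Several further genes are well known outside the ribosome. Rpl5 and Rpl11, which bind MDM2 when ribosome assembly fails, had folds of 11.7 and 12.97. Rps19, the gene most often mutated in Diamond-Blackfan anemia, had 6.94, and Rps6, phosphorylated downstream of mTOR, had 8.24. Rpsa, also called the laminin receptor, had 6.08. The 4 genes on chromosome X were Rpl36a with a fold of 8.24, Rps4x with 6.08, Rpl39 with 5.65 and Rpl10 with 5.22. All 9 of their promoter peak summits lay downstream, and all 4 were below the median of the set. Of other genes on X, 24.3% had a promoter peak, and their median strongest fold was 6.08, against 5.87 for the 4 genes. The promoter peak summits of these other genes were downstream in 68.0% of cases. The large subunit genes had a median fold of 8.67 (interval 8.24 to 10.6) and the small subunit genes 7.80 (interval 6.94 to 9.10), which overlap. The 30 genes that host a snoRNA had a peak in 27 cases with a median fold of 7.37 (interval 6.08 to 9.10). The 47 genes that host none and are not paralogs had a peak in 46 cases with a median fold of 8.67 (interval 7.80 to 10.2).

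The genes with the most peaks included some with several annotated start sites. Rpl18 had 11 promoter peaks over its 3 start sites, with folds from 3.12 to 8.29. Rpl36 had 8 over 2 start sites, and Rpl13 had 7 at a single start site, with folds from 3.28 to 7.24. Rpl10a, Rpl19, Rps6 and Rps18 had 6 each. Of the 84 genes, 19 had a start site of another protein-coding gene within 2 kb, and their peaks may belong to either gene. Without the 45 genes that had any other annotated start within 2 kb, snoRNAs included, 35 of 39 (89.7%) had a peak. At the limit of the 2 kb window, the peaks nearest inside it were those of Rpl32, Rps6 and Rpl12, with edges 1987, 1972 and 1936 bp from a start site. The nearest outside were those of Rpl28, Rpl22l1 and Rpl13, with edges at 2027, 2040 and 2080 bp.

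The mark lay mostly downstream of the start site. Among the 252 promoter peak summits of ribosomal protein genes, 171 (67.9%, interval 61.9 to 73.3%) were downstream, against 58.8% (interval 58.2 to 59.3%) in other genes. The strongest peak was downstream in 58 of 76 genes (76.3%, interval 65.6 to 84.5%), against 62.6% (interval 61.7 to 63.6%). In the mitochondrial ribosomal protein genes it was downstream in 71.8% (interval 60.5 to 81.0%), and in the initiation factors in 66.7% (interval 51.0 to 79.4%), which overlap with the cytosolic set. In the cytosolic set the strongest summit lay at a median of 524 bp downstream (interval 410 to 623), against 301 bp (interval 279 to 317) in other genes. In 36 of the 76 genes (47.4%, interval 36.5 to 58.4%) it lay 400 to 800 bp downstream, against 24.1% of other genes. The mitochondrial set had 33.8% (interval 23.9 to 45.4%) and the initiation factors 33.3% (interval 20.6 to 49.0%), which overlap with the cytosolic set. Of all summits, 21.8% (interval 17.2 to 27.3%) lay there in the cytosolic set, 23.6% in the mitochondrial set and 17.8% in other genes. Summits lay on both sides in 44 genes, only downstream in 30 genes and only upstream in 2 genes (2.63%, interval 0.725 to 9.10%). Of other genes, 12.4% had upstream summits only. The initiation factors had 2.56%, close to the cytosolic set. The mitochondrial set had 9.86% (interval 4.86 to 19.0%), which overlaps with the cytosolic set.

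The start site itself was rarely inside a peak. A start site lay in a peak in 2 of the 84 genes (2.38%, interval 0.655 to 8.27%), against 7.28% of all protein-coding genes. Among genes with a promoter peak the values were 2 of 76 (2.63%, interval 0.725 to 9.10%) and 16.1% (interval 15.4 to 16.8%) of other genes. This share counts any annotated start, and other protein-coding genes had more of them per gene than the 84 genes. The 2 genes were Rpl18 and Rpl22, both of which have more than 1 annotated start site. Only 8 of the 252 summits (3.17%) were within 100 bp of a start site, against 5.40% in other genes. At the most upstream start site, 1.32% of the 76 genes were covered by a peak, against 6.97% of other genes. The mitochondrial ribosomal protein genes with a promoter peak had 2.82% there. Of them, 8.45% (interval 3.93 to 17.2%) had any start site inside a peak, and this interval overlaps with that of the cytosolic set. Coverage of the 76 genes reached 28.9% at 300 bp upstream and 60.5% at 700 bp downstream, where other genes had 23.6% and 36.8%.

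**Figure D3:**
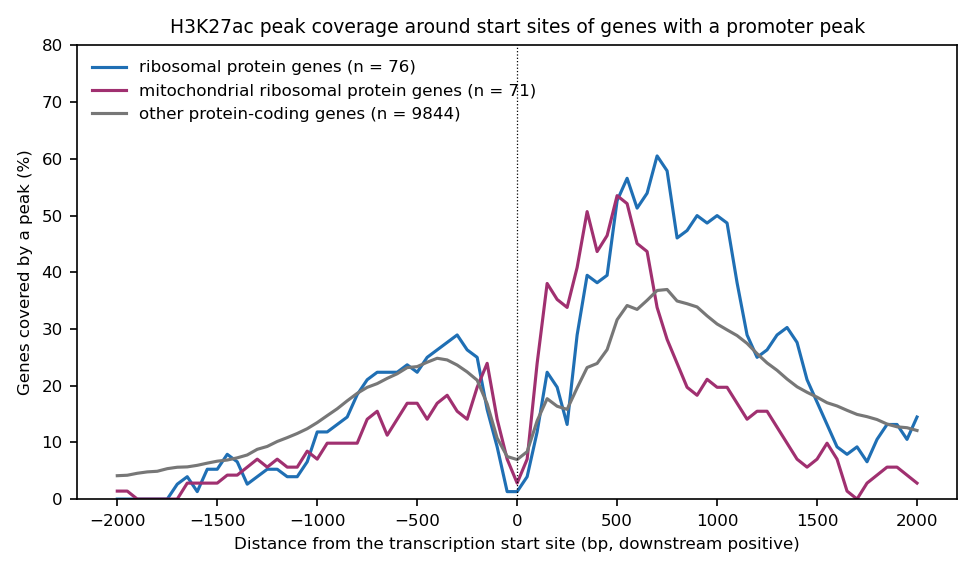
Share of genes covered by an H3K27ac peak (vertical axis, %) at each distance from the most upstream start site (horizontal axis, bp, downstream positive), for genes with a promoter peak. Ribosomal protein genes fall to 1.32% at the start site and rise to 60.5% at +700 bp, where other genes reach 36.8%, and mitochondrial ribosomal protein genes peak nearer the start, at 53.5% at +500 bp.

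The position of the mark was also read against exons and introns. In the reference (RefSeq Select) transcript the first exon of the 76 genes had a median length of 69.5 bp and the first intron ended at a median of 484 bp. The values in other genes with a promoter peak were 208 bp and 3815 bp. Promoter peaks lie within 2 kb of a start site, and in most other genes the first intron ends beyond that. The share of summits past the first intron therefore depends on gene structure and the window as well as on the position of the mark. These cannot be told apart here, so the share is not read as a difference in the mark. The strongest summit lay after the first intron in 33 of 76 genes (43.4%, interval 32.9 to 54.6%), against 8.72% (interval 8.17 to 9.29%) in other genes. It lay in the first intron in 24 genes (31.6%), against 47.9%, in the first exon in 1 gene, and upstream in 18 genes (23.7%), against 37.0%. Of all 252 summits, 133 (52.8%) were in introns, 45 (17.9%) in exons and 71 upstream of the gene, the rest of the summits upstream of their nearest start site being inside the gene. Read mapping may bear on the exons. By the methods of the study, reads that aligned at more than 2 places were discarded. The labels name another aligner, so whether this filter was used for this list is not known. In the windows of the 84 genes, 21.0% of exon positions start a 50-base sequence with more than 2 copies in the genome, against 2.84% of positions outside exons. Its part in the position of the peaks was not tested.

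**Figure D4:**
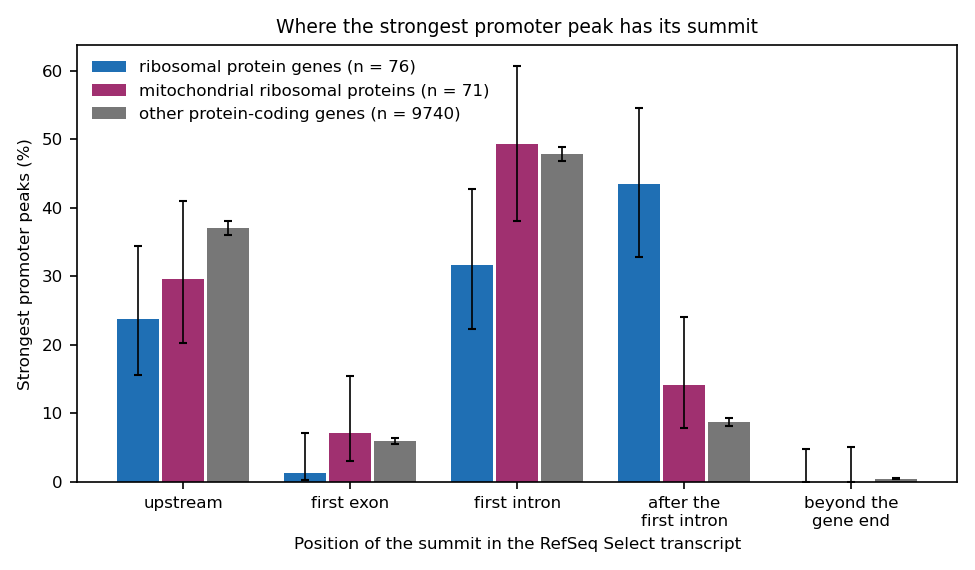
Position of the summit of the strongest promoter peak in the reference transcript (horizontal axis) as a share of genes (vertical axis, %), with Wilson 95% intervals, for ribosomal protein, mitochondrial ribosomal protein and other protein-coding genes. After the first intron the ribosomal protein genes reach 43.4% and other genes 8.72%, most of which have a first intron that runs past the 2 kb window.

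Other genes of protein synthesis were set beside the cytosolic set. The mitochondrial ribosomal protein genes, which encode the separate ribosome of that organelle, had a peak in 71 of 78 cases (91.0%), a share like that of the cytosolic genes. Their median strongest fold was 6.94 (interval 6.51 to 7.39), against 8.29 (interval 7.37 to 9.10), and the intervals just overlap. That peak was the highest of a median of 2 per mitochondrial gene and 3 per cytosolic gene. Over all promoter peaks the median folds were 5.88 (interval 5.64 to 6.13) and 5.77 (interval 5.65 to 6.08), so the cytosolic set was not higher. With the strongest 25% of peaks their share was 46 of 78 (59.0%, interval 47.9 to 69.2%), against 72.6% (interval 62.3 to 81.0%) of the cytosolic genes. The strongest summit of the mitochondrial set lay at a median of 280 bp downstream (interval 146 to 412). The cytosolic set had 524 bp, and these intervals also just overlap. Of the mitochondrial genes 14.1% had it after the first intron.

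The other parts of the cytosolic ribosome, which the symbol rule does not take, all had a peak. Rack1, a scaffold on the small subunit, had a fold of 8.51, Rpl36al had 6.94, and Fau, made as a fusion with a ubiquitin-like protein, had 5.65. Among translation elongation factors, 5 of 8 had a peak, with folds from 8.24 to 11.2, the highest being that of Eif5a, which is also among the initiation factors. Of the initiation factors, 39 of 48 (81.3%) had one, with a median fold of 8.24 (interval 6.94 to 10.0), close to that of the ribosomal proteins. Of 26 ribosome biogenesis genes, 24 had a peak, with a median fold of 6.84 (interval 6.51 to 9.10).

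Some sequence features that the symbol rule did not use were more frequent in promoters of the ribosomal protein genes than in all promoters. In the 300 bases from 250 before to 50 after the reference start, searched on both strands, a polypyrimidine start (coding strand only) was found in 29 of 64 genes (45.3%, interval 33.7 to 57.4%). It was found in 18.7% of 17492 protein-coding genes with a sequence. The search reached only 5 bases from the annotated start, so it does not show that the other genes lack such a start. The ETS motif CCGGAAG was in 24 genes (37.5%, interval 26.7 to 49.7%), against 12.1% of all. The GC box GGGCGG was in 39 genes (60.9%), against 47.5%. The ETS motif and the GC box both contain a CpG, and the promoters were not matched by CpG content. The part of CpG content in these shares was not tested. The YY1 motif AAGATGGCG was in 4 genes, namely Rpl13a, Rpl35a, Rpl7l1 and Rps27 (6.25% against 1.99%). TATAAA was in 7 genes (10.9% against 13.3%), the E-box CACGTG in 5 (7.81% against 7.89%), and the NRF1 motif GCGCATGCG in Rpl5 and Rpl37a (3.13% against 2.45%). The last 3 were about as frequent as in all promoters.

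Genes with and without the 3 most frequent features overlapped in height of the mark, and no test was made between them. Genes with a polypyrimidine start had a median strongest fold of 8.02 (n = 26) and those without it 8.26 (n = 32). With an ETS motif the median was 8.24 (n = 22) and without it 8.02 (n = 36). With a GC box it was 7.39 (n = 36) and without it 8.88 (n = 22). The motifs were matched as letters and show no binding of a factor. The 7 genes with none of the 7 features were Rpl3l, Rpl4, Rpl9, Rpl22, Rpl24, Rps12 and Rps15. They were spread over the order, from Rps15 with a fold of 19.0 to Rpl22 with 6.94 and Rpl3l with no peak.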

How the data were processed

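H3K27ac CUT&RUN peaks of the library MCP H3K27ac replicate 5 were analyzed. The other 14 libraries were not analyzed here. According to the methods of the study, fragments were aligned to mm10 with bowtie after removal of bacterial reads, problematic regions were discarded, and peaks were called per library against IgG with an early release of MACS. The sample labels name BWA, SAMtools and MACS2 in place of bowtie and MACS, and the peak list is named for MACS2, so the tools and threshold behind it are not known here. The deposited score of each peak was 10 times the -log10 q, rounded down to a whole number. The authors' caller gave each peak a fold, the ratio of scaled summit fragments plus 1 to background plus 1. The background comes from the IgG library and has a lowest value of 1.05 fragments. The authors also deposited the -log10 p-value and -log10 q-value of each peak, which were used to rank, filter and describe.

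A promoter peak overlapped by at least 1 bp the 2 kb either side of a start site of any RefSeq transcript in GRCm38.p6. Distances were taken from the summit to the nearest start site. Fragments were recovered by solving fold and p for a whole number within 0.01 on the -log10 scale, which succeeded for 252 of 252 promoter peaks, for 224 with 1 solution. With a scaling factor 3% higher, 8 were solved. The recovered numbers are inferences and cover counting error only. Shares have Wilson intervals, and medians have exact order-statistic intervals. No p-value was computed, because there is 1 library and genes are not replicates. The steps were tested on simulated data. Python 3.11.15, numpy 2.4.6, pandas 2.3.3, scipy 1.17.1 and matplotlib 3.10.9 were used.

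The genes and comparison lists were chosen with earlier results of these data known. Named genes were those without a peak, the 8 highest and 8 lowest by fold, the 5 with most peaks, the 5 widest, the P stalk genes and Rpsa, the paralogs and their parents, the genes on X, the peaks nearest the window limit, and Rps19, Rpl5, Rpl11, Rps6 and Rpl13a. Results for 2 single genes are not reported here, although the counts include them. Genes listed by motif were named after their values were seen. The lists were the other parts of the cytosolic ribosome, mitochondrial ribosomal proteins, elongation factors, initiation factors, ribosome biogenesis, and the myogenic and endothelial markers.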

Additional observations from a re-analysis of the deposited data

How the results depend on the processing

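No paired analysis was possible because a single library was analyzed and no result comes from a test. Of 102 recomputed values over 21 results, 87 stayed within the 95% interval of the reported value, 15 moved out of it and 0 reversed in sign. With 500 bp in place of 2 kb, 79.8% of the ribosomal protein genes had a promoter peak, against 37.7% of other genes, 59.1% of summits were downstream against 54.0%, and the median summit lay 136 bp downstream, as a narrower window must bring it nearer. With the strongest 25% of peaks, shares with a promoter peak were 72.6% for the cytosolic genes, 59.0% for the mitochondrial ribosomal proteins, 50.0% for the other parts of the cytosolic ribosome, 62.5% for the initiation factors and 61.5% for ribosome biogenesis. With these peaks, with peaks of -log10 q 5 or more, or without genes beside another start site, 0.0% of ribosomal protein genes had the start site inside a peak. The reported value was only 2 of 84 genes. The share over all protein-coding genes was not computed at these settings, so the 0.0% shows no contrast with them. With the peak of the nearest summit taken per gene, the median fold was 6.23 and the median width 181 bp, against a fold of 5.65 in other genes. With 100 bases before the start searched, the GC box was in 45.3% and the E-box in 1.56% of ribosomal protein promoters. The shares over all promoters were not computed for this shorter stretch, so whether the GC box excess holds there is not known. The cause of these moves was not tested beyond the narrower windows and fewer peaks themselves.

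Depth limits single genes most, since the median of 15 fragments per promoter peak gives a Poisson error of 25.8%. Nothing here measures variation between tumors, and absent peak numbers leave missing peaks uncertain at 9 genes.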
